A study of Homo sapiens with 6 samples.

Results

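The genes described here are 10 members of the AP-1 and immediate early group: the FOS family (FOS, FOSB, FOSL1 and FOSL2), the JUN family (JUN, JUNB and JUND), and EGR1, IER3 and ARC. They were taken by gene symbol from the deposited expression table, where all 10 were found among 25442 genes. The measurements come from 6 RNA-seq libraries of YAPC, a human pancreatic cancer line that serves in the study as a model of classical pancreatic ductal adenocarcinoma. All 6 libraries were made from rtTA-expressing YAPC cells that had received doxycycline (Dox) for 6 days. The 3 YAPC-iGLI2 libraries came from cells with the pRetroX-Tight-Puro plasmid holding GLI2, and the 3 YAPC-iEV libraries from cells with the same plasmid left empty (EV). In this system Dox switches on a transgene for Flag-tagged GLI2, a transcription factor of the Hedgehog pathway, at a level set by the construct. The labels name no cells without Dox, and they do not say whether replicates came from separate cultures, so p-values measure the spread between these libraries, which may be technical.

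AP-1 is a dimeric transcription factor. A JUN protein pairs through a leucine zipper with another JUN protein or with a FOS protein, and the dimer binds a short palindromic DNA site. JUN proteins can pair with each other, whereas FOS proteins need a JUN partner. FOS, EGR1 and their kin are called immediate early genes because they are transcribed within minutes of a growth factor or stress signal, without new protein synthesis, through kinases such as ERK and JNK. Serum response factor (SRF), bound at CArG boxes, passes much of this signal to FOS and EGR1. The libraries were taken at a single time, so they show levels after 6 days and not the transient response to a stimulus.

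RefSeq promoter windows, each from 250 bases before to 50 bases after the gene start, were found for 7 of the 10 members and not for FOSL1, IER3 and ARC. Those of JUN and EGR1 are shown because these genes have the largest differences among the 7 and carry different signal-responsive elements, and the capitals mark those elements. The coordinates are in GRCh38.p14, the build of the RefSeq table, which is not the build of the expression table.
JUN, chr1:58783998-58784297, minus strand: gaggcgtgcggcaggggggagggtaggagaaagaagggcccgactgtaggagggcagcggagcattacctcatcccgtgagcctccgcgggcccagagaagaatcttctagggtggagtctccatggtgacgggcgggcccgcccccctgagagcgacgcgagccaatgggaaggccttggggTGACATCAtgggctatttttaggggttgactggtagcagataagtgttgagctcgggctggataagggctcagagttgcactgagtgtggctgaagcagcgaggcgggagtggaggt
EGR1, chr5:138465229-138465528, plus strand: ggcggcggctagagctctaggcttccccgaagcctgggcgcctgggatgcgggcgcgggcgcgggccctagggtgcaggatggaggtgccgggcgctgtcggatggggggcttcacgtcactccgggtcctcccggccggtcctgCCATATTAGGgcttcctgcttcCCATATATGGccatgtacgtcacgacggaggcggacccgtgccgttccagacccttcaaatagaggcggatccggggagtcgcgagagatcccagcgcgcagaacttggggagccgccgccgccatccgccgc

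In JUN the capitals mark TGACATCA, the 8-base AP-1 site through which JUN is known to act on its own gene, from 67 to 60 bases before the start. That motif, searched on both strands, was in 2.61% of the 35116 RefSeq promoter windows. In EGR1 the capitals mark 2 CArG boxes, CCATATTAGG from 105 to 96 bases and CCATATATGG from 83 to 74 bases before the start, and a CArG box was in 1.29% of all windows. The window of JUND held the cAMP response element TGACGTCA (1.85% of all windows), 200 to 193 bases before the start. The consensus AP-1 site TGAGTCA was in the FOSL2 window alone among the 7 (4.95% of all windows). There it lay after the gene start, unlike the other sites named here. The windows of FOS, FOSB and JUNB held TATAAA starting 33, 30 and 31 bases before the start, a motif of 11.5% of all windows. The GLI consensus GACCACCCA was in 0 of the 7 member windows and in 0.236% of all windows, and the EGR1 site GCGGGGGCG was in 0 of the 7 and in 5.07% of all. All searches covered both strands, and a match or its lack describes the letters of the window and nothing else.

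Values were read as FPKM, fragments scaled to transcript length and library, so that levels can be set side by side between genes. Where a gene has a value for every library, those of replicates 1, 2 and 3 stand in that order, as iEV 1 to 3 and iGLI2 1 to 3. The transgene was present where the labels put it, with 0.344 to 0.466 FPKM of GLI2 in iEV cells and 94.5, 207 and 195 FPKM in iGLI2 replicates 1, 2 and 3. iGLI2 replicate 1 thus had less GLI2 than replicates 2 and 3. Replicate 1 was also the lowest iGLI2 library for 8 of the 10 members and the lowest iEV library for 6 of them, against 53.9% and 45.0% of all genes tested. Both member counts include FOSB, which was too low to be tested. The part of replicate 1 in the results was not tested, and counts without both replicates 1 are given below. The epithelial markers EPCAM, CDH1 and KRT19 were expressed in both groups, and the 5 epithelial markers summed to 1025 to 1156 FPKM (iEV) and 1111 to 1173 FPKM (iGLI2). KRT19 was the highest of the 5, and the sum does not show whether EPCAM or CDH1 alone differed. KRT8 and KRT18, at a shared locus, are listed at 0 in all 6 libraries, which was not read as absence. Of markers of other cell types, the 6 for fibroblasts summed to 1.36 to 1.57 FPKM (iEV) and 2.31 to 3.02 FPKM (iGLI2), with 1 member at 0 throughout. The 5 for leukocytes summed to 7.59 to 8.50 FPKM (iEV) and 4.20 to 5.19 FPKM (iGLI2). Of these 5, CD14 was the highest and 2 had a mean of 1 FPKM or more. The 4 for endothelium stayed between 0.424 and 0.599 FPKM. Their part in the results was not tested.

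**Figure D1:**
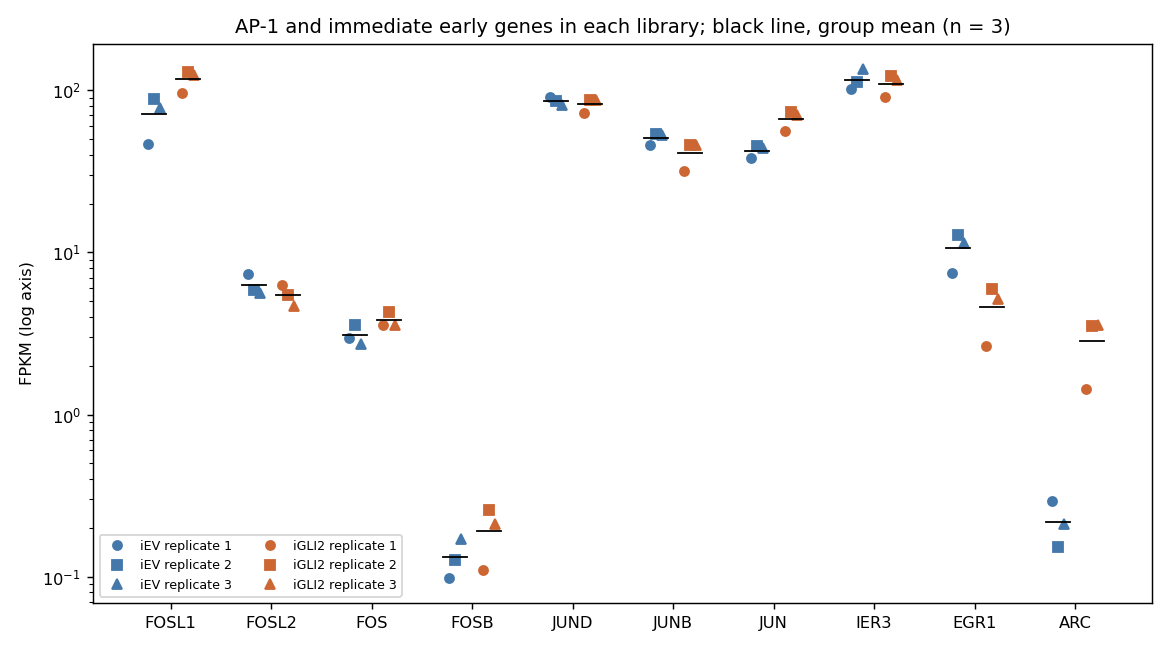
FPKM of the 10 genes in each of the 6 libraries on a log axis, with iEV in blue, iGLI2 in orange, a marker shape for each replicate number and a black line at each group mean. ARC, JUN, FOSL1, FOS and EGR1 have groups that do not overlap, and ARC is the gene with the widest gap, from at most 0.293 FPKM in iEV to at least 1.44 FPKM in iGLI2 cells.

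JUN and ARC rose in iGLI2 cells, and 0 members fell past the threshold. EGR1 had the lowest iGLI2 to iEV ratio and narrowly missed the threshold. The remaining genes of the group, IER3, JUND, JUNB, FOSL2, FOS and FOSL1, gave intervals that are stated below, and FOSB was too low to test. The test was limma, two-sided, on log2(FPKM + 1) over 12493 genes that reached a mean level of 1 FPKM, with Benjamini-Hochberg adjustment. In that test 9 of the 10 members were included, and 2 of the 9 were called at an adjusted p under 0.05, beside 21.9% of all genes tested. Both were higher (10.1% of all genes tested were called higher) and 0 were lower (11.8% of all), so the number called is close to that of the whole table. At an unadjusted p under 0.05, 4 of the 9 passed, against 35.6% of all genes tested. Of the 8 members with a mean of 1 FPKM or more in both groups, 1 was called, beside 21.1% of all genes of that kind. In bulk RNA, a change in the share of cells that express a gene and a change in the RNA per cell cannot be told apart. The groups did not overlap in 5 of the 9 members, against 42.0% of all genes tested. Without replicate 1 of both groups, a setting added after the data were seen, 3 members were called higher (ARC, JUN and FOSL1) and 2 lower (EGR1 and JUNB). In that setting 5467 of the 12493 genes tested were called, beside 2742 with all libraries, so the number called rose over the whole table as well.

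JUN, the founding AP-1 subunit and a target of JNK, lies on the minus strand of chromosome 1 of hg19 from 59246463 to 59249785. Its values were 38.0, 45.3 and 44.0 FPKM (iEV 1 to 3) and 56.3, 73.2 and 70.6 FPKM (iGLI2 1 to 3). Every iGLI2 library was above every iEV library. The mean rose from 42.4 ± 3.90 to 66.7 ± 9.10 FPKM (n = 3 libraries each, SD), a ratio of 1.57, and limma gave a log2 fold change of 0.64 ± 0.12 (standard error, adjusted p = 0.0173). Of the 6 fits that leave out 1 library, JUN stayed past the threshold in 1, the fit without iGLI2 replicate 1 (adjusted p = 0.00506, limma). In the other 5 the limma adjusted p was 0.0502 without iEV replicate 1, 0.0545 without iEV replicate 2, 0.0617 without iEV replicate 3, 0.0667 without iGLI2 replicate 2 and 0.0674 without iGLI2 replicate 3, while the log2 fold change over the 6 fits lay between 0.56 and 0.75.

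JUNB, on chromosome 19 from 12902310 to 12904125, and JUND, on the same chromosome from 18390504 to 18392466, pair with FOS proteins as JUN does and are known as weaker activators than JUN in many settings. JUNB had 46.0, 53.9 and 53.3 FPKM (iEV 1 to 3) and 31.7, 45.8 and 46.0 FPKM (iGLI2 1 to 3). The groups touch at 46.0 FPKM, and the log2 fold change of -0.32 (95% interval from -0.72 to 0.07) missed the threshold (limma adjusted p = 0.216). The JUNB locus lies within that of HOOK2 on the other strand, with 259 bases of shared exon, and the handling of strand in counting is not given in the sources used here. JUND was the highest JUN family gene in every library, at 90.9, 85.7 and 81.4 FPKM (iEV 1 to 3) and 73.0, 86.9 and 87.0 FPKM (iGLI2 1 to 3). Its groups overlapped, and the log2 fold change was -0.07 (95% interval from -0.29 to 0.16, limma adjusted p = 0.647).

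The order of JUN and JUNB within a library differed between the groups. The ratio of JUN to JUNB was 0.826, 0.840 and 0.826 in iEV replicates 1, 2 and 3 and 1.78, 1.60 and 1.54 in iGLI2 replicates 1, 2 and 3. JUN was thus below JUNB in all 3 iEV libraries and above it in all 3 iGLI2 libraries, and the scaling of a library cancels in this ratio. The ratio was taken up after the values were seen. The mean was 0.831 ± 0.00823 in iEV and 1.64 ± 0.126 in iGLI2 cells (SD, n = 3 each; exact two-sided permutation p = 0.1, the smallest that 3 libraries against 3 allow).

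The summed FPKM of the JUN family was 175, 185 and 179 in iEV and 161, 206 and 204 in iGLI2 replicates 1, 2 and 3. These sums overlapped between groups (exact permutation p = 0.4, n = 3 each). Within the sum, JUN made up 23.6% ± 1.63 in iEV and 35.1% ± 0.436 in iGLI2 cells (n = 3 libraries each, SD). JUNB went from 28.4% ± 1.87 to 21.5% ± 1.60 and JUND from 48.0% ± 3.50 to 43.4% ± 1.68 of the family (n = 3 libraries each, SD). The JUN shares of the groups did not overlap (exact permutation p = 0.1, n = 3 each, the smallest possible). The shares add up to the whole family, so those of JUNB and JUND are not independent of that of JUN and were not read as changes of their own.

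**Figure D2:**
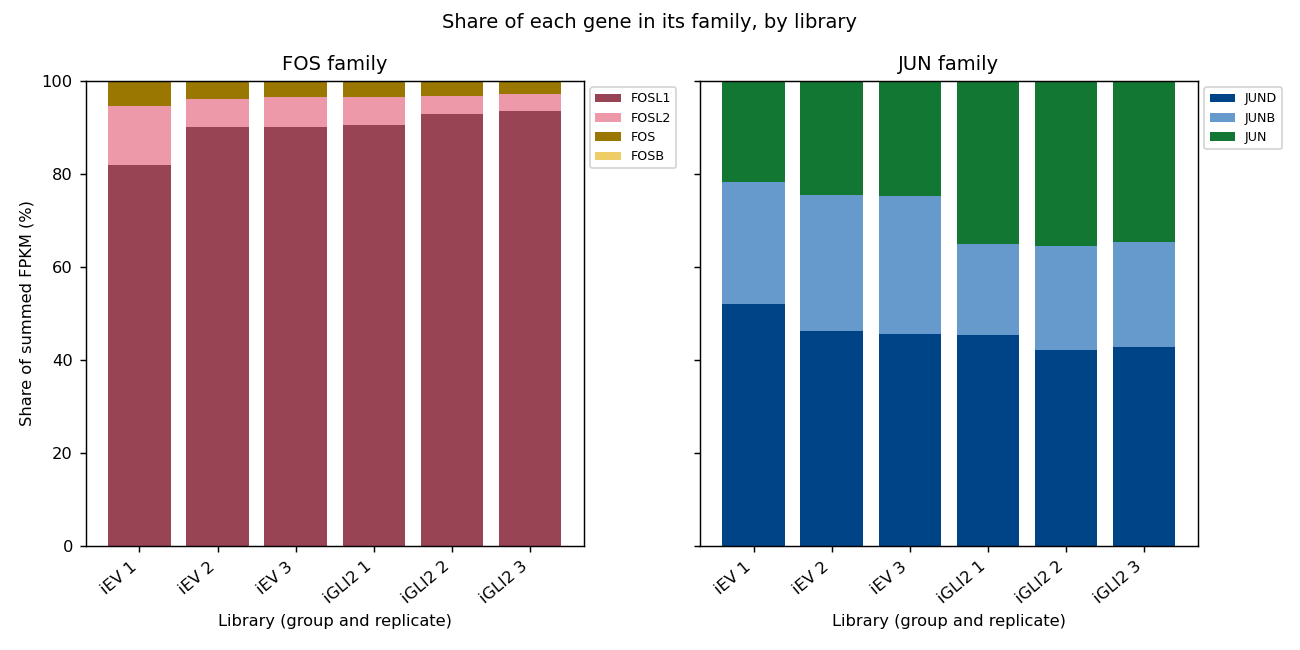
Share in percent of each gene in the summed FPKM of the FOS family (left) and of the JUN family (right), with 1 stacked bar for each library. JUN takes 21.7 to 24.6% of its family in the iEV libraries and 34.7 to 35.6% in the iGLI2 libraries, and FOSL1 takes at least 81.8% of its family in every library.

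In the FOS family, FOSL1 was by far the main transcript. This gene, on the minus strand of chromosome 11 from 65659607 to 65667997, encodes FRA1, a subunit without the strong activation domain of FOS that is linked to migration and invasion in carcinoma cells. It had 46.9, 87.9 and 78.1 FPKM (iEV 1 to 3) and 96.3, 129 and 125 FPKM (iGLI2 1 to 3). The groups did not overlap, but replicate 1 stood below the other libraries in each. The means were 71.0 ± 21.4 and 117 ± 17.8 FPKM (n = 3 libraries each, SD), a ratio of 1.65 that is larger than that of JUN. With this spread the log2 fold change of 0.75 (standard error 0.25, 95% interval from 0.13 to 1.37) did not pass the threshold (limma adjusted p = 0.0881). Leaving out single libraries gave limma adjusted p-values between 0.0770 and 0.228. Leaving out replicate 1 of both groups gave 0.00728, in a setting where 5467 of the 12493 genes tested were called. FOSL1 also passed with the small RNA genes left out (limma adjusted p = 0.0321).

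FOS itself, on chromosome 14 from 75745481 to 75748937, was low, with 2.97, 3.54 and 2.72 FPKM (iEV 1 to 3) and 3.58, 4.28 and 3.55 FPKM (iGLI2 1 to 3). The highest iEV and the lowest iGLI2 value, 3.54 and 3.55 FPKM, nearly met, and the log2 fold change was 0.24 (95% interval from -0.02 to 0.50, limma adjusted p = 0.172). FOSL2, which encodes FRA2 and lies on chromosome 2 from 28607276 to 28637516, had 7.34, 5.89 and 5.63 FPKM (iEV 1 to 3) and 6.26, 5.47 and 4.70 FPKM (iGLI2 1 to 3). Here replicate 1 was the highest library of each group, the groups overlapped, and the log2 fold change was -0.17 (95% interval from -0.48 to 0.14, limma adjusted p = 0.399). FOSB, on chromosome 19 from 45971253 to 45978437, lay between 0.0987 and 0.256 FPKM over the 6 libraries, under the minimum of 1 FPKM for the test. The sum of the FOS family was 57.3, 97.4 and 86.6 FPKM (iEV 1 to 3) and 106, 139 and 133 FPKM (iGLI2 1 to 3), with no overlap (exact permutation p = 0.1, n = 3 each). FOSL1 accounted for 87.4% ± 4.81 of this sum in iEV and 92.4% ± 1.55 in iGLI2 cells (n = 3 libraries each, SD). The shares of FOSL1 did not overlap, at 90.2% in the highest iEV and 90.6% in the lowest iGLI2 library. FOS made up 2.66 to 5.18% and FOSL2 3.52 to 12.8% of the family over the 6 libraries.

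EGR1, a zinc finger factor and a fast sensor of ERK signaling, lies on chromosome 5 from 137801181 to 137805004. Its values were 7.51, 12.8 and 11.5 FPKM (iEV 1 to 3) and 2.64, 5.98 and 5.17 FPKM (iGLI2 1 to 3). Each iGLI2 library was below every iEV library, and replicate 1 was again the lowest of both groups. The iEV mean was 10.6 ± 2.74 FPKM and the iGLI2 mean 4.60 ± 1.74 FPKM (n = 3 libraries each, SD), a ratio of 0.434. The log2 fold change of -1.07 (standard error 0.30, 95% interval from -1.80 to -0.35) stopped just short of the threshold (limma adjusted p = 0.0503). EGR1 passed in 0 of the 6 fits that leave out 1 library (limma adjusted p from 0.0519 to 0.163) and in 5 of all 16 alternatives. Among those 5 were upper quartile scaling (limma adjusted p = 0.0454), quantile normalization (0.0428) and the fit with small RNA genes left out (0.0292). Over all alternatives its limma adjusted p ran from 0.00342 to 0.163.

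ARC encodes a synaptic protein with a retroviral Gag-like fold and is best known as an immediate early gene of neurons. It lies on the minus strand of chromosome 8 from 143692405 to 143695833. Its level was 0.293, 0.151 and 0.210 FPKM (iEV 1 to 3) and 1.44, 3.54 and 3.55 FPKM (iGLI2 1 to 3). Each iGLI2 library exceeded every iEV library, and replicate 1 was the iGLI2 library with the least ARC, as it was for GLI2. The mean went from 0.218 ± 0.0712 to 2.84 ± 1.21 FPKM (n = 3 libraries each, SD), a ratio of 13.0. On the log2(FPKM + 1) scale, which holds down the change of low genes, limma gave a log2 fold change of 1.60 ± 0.26 (standard error, adjusted p = 0.00970), and with a pseudocount of 0.1 it was 3.13. ARC passed the threshold in all 6 fits that leave out 1 library, with a highest limma adjusted p of 0.0464. It reached the minimum of 1 FPKM only through the iGLI2 libraries, so it could enter the test only if it differed.

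IER3, an immediate early gene of NF-κB and ERK signaling that affects cell survival, was among the most abundant members. It lies on chromosome 6 from 30710976 to 30712327 and had 101, 113 and 135 FPKM (iEV 1 to 3) and 90.5, 122 and 116 FPKM (iGLI2 1 to 3). The groups overlapped, with a log2 fold change of -0.09 (95% interval from -0.46 to 0.29, limma adjusted p = 0.724). IER3 shares 440 bases of exon with the antisense gene IER3-AS1, and reads of the pair cannot be told apart without strand.

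**Figure D3:**
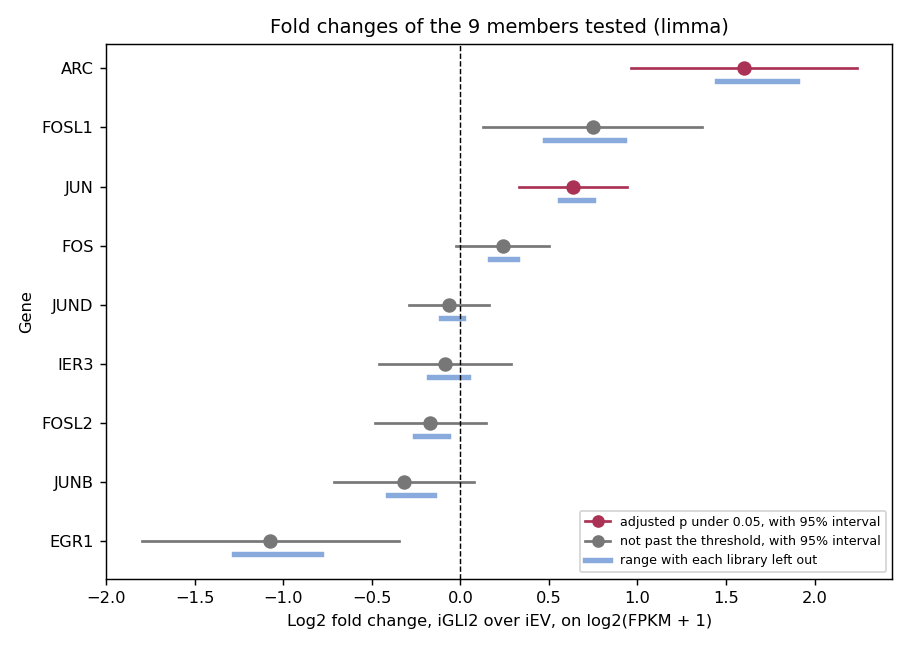
Log2 fold change of iGLI2 over iEV on the log2(FPKM + 1) scale for the 9 members tested, with the 95% interval from limma and, in light blue, the range of the estimate when single libraries were left out. The intervals of ARC, JUN, FOSL1 and EGR1 lie clear of 0, and after adjustment over all genes ARC and JUN pass the threshold.

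By mean level, the order in iEV cells was IER3, JUND, FOSL1, JUNB, JUN, EGR1, FOSL2, FOS, ARC and FOSB. The range of FOSL1 overlapped with those of JUND and JUNB, although FOSL1 was above JUNB within each library and JUND lay above JUNB throughout. The ranges of ARC and FOSB overlapped as well. In iGLI2 cells the order was FOSL1, IER3, JUND, JUN, JUNB, FOSL2, EGR1, FOS, ARC and FOSB. FOSL1 overlapped with IER3 and JUND with JUN, and EGR1 overlapped with FOSL2, FOS and ARC. The members varied more between replicates than most genes. Their median residual SD was 0.217 on the log2 scale beside 0.128 for all genes tested, 8 of the 9 were above the median of all genes, and 3 (FOSL1, EGR1 and ARC) were above the 90th percentile. Without replicate 1 of both groups the residual SD was 0.0870 for FOSL1, 0.114 for EGR1 and 0.0356 for ARC. That of FOS rose from 0.135 to 0.180. The spread of all genes in that setting was not worked out.

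The other genes of the pathway were taken from 4 lists written from general knowledge, with earlier results of these data known. The shares called in them therefore describe these lists and are no independent sign of an excess. In the list of AP-1 related bZIP factors, which pair with JUN or compete for its site, 19 of 20 genes were tested, 2 were higher, 3 were lower and 14 were not called, so that 26.3% were called beside 21.9% of all genes tested. The list median of the log2 fold change was 0.05, beside -0.015 over all genes tested. The lower genes were BATF3, BATF and JDP2, which form dimers with JUN proteins. BATF3 had 5.61, 9.22 and 7.69 FPKM (iEV 1 to 3) and 0.603, 1.02 and 1.14 FPKM (iGLI2 1 to 3), a log2 fold change of -2.14 (adjusted p = 0.00128, limma). BATF had 26.2, 28.9 and 29.5 FPKM (iEV 1 to 3) and 10.6, 16.2 and 16.6 FPKM (iGLI2 1 to 3), a log2 fold change of -0.94 (adjusted p = 0.0144, limma). JDP2 had 5.14, 4.90 and 5.04 FPKM (iEV 1 to 3) and 0.993, 2.50 and 2.43 FPKM (iGLI2 1 to 3), a log2 fold change of -1.06 (adjusted p = 0.0227, limma). In all of these the iGLI2 libraries were below the iEV libraries, BATF3 met the minimum of 1 FPKM only through the iEV libraries, and BATF3 passed in all 6 fits without 1 library, BATF in 4 and JDP2 in 3. The higher genes were BATF2 and the small MAF protein MAFK, with log2 fold changes of 0.40 and 0.26 (limma adjusted p = 0.0480 and 0.0373), and each passed in 1 of the 6 such fits.

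Of 38 other immediate early genes, 33 were tested, of which 9 were higher, 6 were lower and 18 were not called, with a list median log2 fold change of 0.09. The share called was 45.5%, beside 21.9% of all genes tested. NR4A1, NR4A2 and SGK1 passed the filter only through the iGLI2 libraries, and the latter pair were called higher. Among the 30 genes with a mean of 1 FPKM or more in both groups, 7 were higher and 6 lower, or 43.3% beside 21.1% of all such genes. NR4A2, an orphan nuclear receptor, had 0.544, 0.472 and 0.485 FPKM (iEV 1 to 3) and 5.24, 4.91 and 5.69 FPKM (iGLI2 1 to 3), a log2 fold change of 2.06 (adjusted p = 1.32e-04, limma). DUSP5, a nuclear phosphatase that acts on ERK, went from 51.4, 52.7 and 51.6 FPKM in iEV to 102, 101 and 98.0 FPKM in iGLI2 cells (log2 fold change 0.94, limma adjusted p = 3.46e-04). DUSP1, which acts on JNK, p38 and ERK, went from 4.001, 5.04 and 4.24 to 7.06, 9.27 and 9.19 FPKM (log2 fold change 0.81, limma adjusted p = 0.00829). All 3 passed in each of the 6 fits without 1 library.

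In the other direction, CYR61, a matricellular gene responsive to SRF and YAP, had 16.7, 27.9 and 28.1 FPKM (iEV 1 to 3) and 9.06, 9.36 and 11.3 FPKM (iGLI2 1 to 3), a log2 fold change of -1.18 (adjusted p = 0.0137, limma). KLF6, a zinc finger factor, had 47.3, 49.7 and 46.2 FPKM (iEV 1 to 3) and 29.9, 21.4 and 19.2 FPKM (iGLI2 1 to 3), a log2 fold change of -1.02 (adjusted p = 0.00853, limma). ID1, an inhibitor of bHLH factors, had 21.8, 21.4 and 19.9 FPKM (iEV 1 to 3) and 10.8, 10.8 and 10.1 FPKM (iGLI2 1 to 3), a log2 fold change of -0.93 (adjusted p = 5.30e-04, limma). KLF6 and ID1 passed in all 6 fits without 1 library and CYR61 in 3. EGR2, EGR3, EGR4, NR4A3 and DUSP2 lay under 1 FPKM on average and were not tested. MYC and KLF4, picked after their values were seen, behaved like EGR1 in that replicate 1 was the lowest library of both groups. The same held for DUSP1, GADD45A and SGK1, which were called higher, so this trait does not set MYC and KLF4 apart. MYC had 78.9, 114 and 102 FPKM (iEV 1 to 3) and 46.1, 71.9 and 74.4 FPKM (iGLI2 1 to 3), and its limma adjusted p was 0.104. KLF4 had 24.4, 43.2 and 37.0 FPKM (iEV 1 to 3) and 12.8, 23.3 and 23.5 FPKM (iGLI2 1 to 3), with a limma adjusted p of 0.119.

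**Figure D4:**
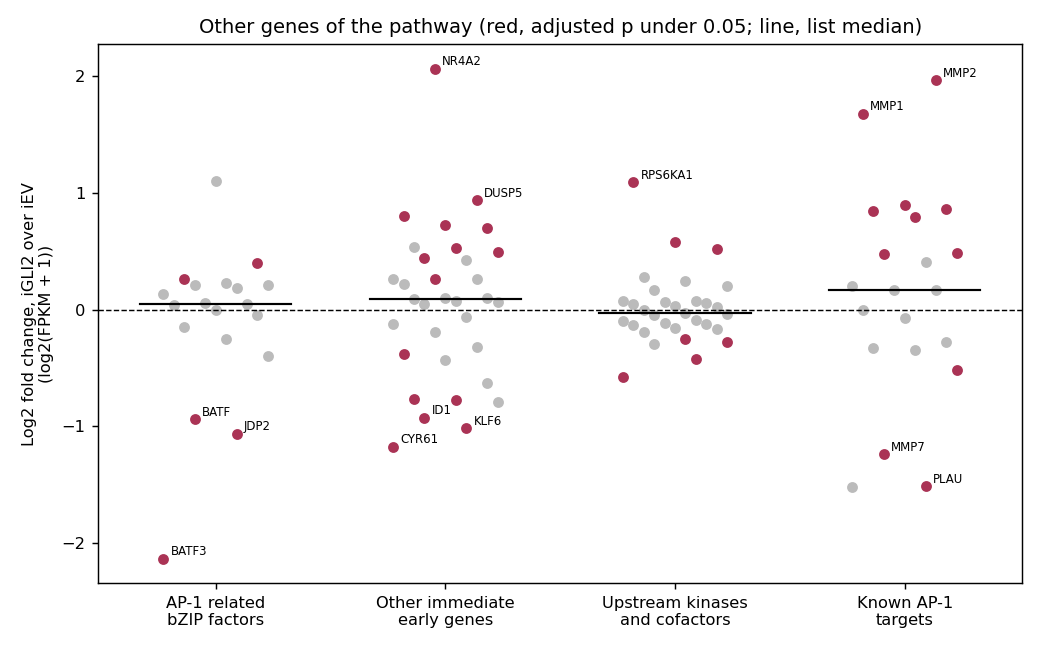
Log2 fold change of iGLI2 over iEV on the log2(FPKM + 1) scale for each tested gene of the 4 related lists, in red where the adjusted p is under 0.05 and in grey otherwise, with a line at each list median. Red points lie on both sides of 0 in every list, from BATF3 at -2.14 to NR4A2 at 2.06.

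Among upstream kinases, SRF cofactors and regulators of EGR1 or JUN, 31 of 32 genes were tested, and 3 were higher, 4 lower and 24 not called. The list median log2 fold change was -0.031. The share called was 22.6%, beside 21.9% of all genes tested, so it was close to that of the whole table. RPS6KA1, which encodes the ERK-activated kinase RSK1, had 10.9, 11.1 and 11.2 FPKM (iEV 1 to 3) and 19.8, 27.7 and 27.4 FPKM (iGLI2 1 to 3), a log2 fold change of 1.09 (adjusted p = 0.00354, limma). RPS6KA2, its paralog, went the other way, from 13.3, 13.3 and 12.8 to 7.65, 8.72 and 8.96 FPKM (log2 fold change -0.58, limma adjusted p = 0.00362). RPS6KA5, the chromatin kinase MSK1, was higher (log2 fold change 0.58, limma adjusted p = 0.0152). MAPK8, encoding JNK1, rose from 17.9, 16.8 and 16.3 to 27.1, 24.4 and 23.2 FPKM (log2 fold change 0.52, limma adjusted p = 0.00659). MAPK9, encoding JNK2, had a log2 fold change of -0.28 (adjusted p = 0.0362, limma) and passed in 1 of the 6 fits without 1 library. MAP2K6, a p38 kinase kinase, fell by 0.42 on the log2 scale (limma adjusted p = 0.00768). RPS6KA5 passed in 3 of those 6 fits. SRF itself was at 46.1, 47.9 and 46.1 FPKM (iEV 1 to 3) and 44.1, 41.8 and 41.4 FPKM (iGLI2 1 to 3), and its limma adjusted p was 0.143.

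Of 28 genes known as AP-1 targets in various cells, 21 were tested, and 8 were higher, 3 lower and 10 not called, with a list median log2 fold change of 0.17. The share called was 52.4%, beside 21.9% of all genes tested. MMP1, MMP2 and MMP13, all called higher, passed the filter only through the iGLI2 libraries and IL6, not called, only through the iEV libraries. Among the 17 targets with a mean of 1 FPKM or more in both groups, 5 were higher and 3 lower, or 47.1% beside 21.1% of all such genes. Other factors are known to regulate many of these genes as well. MMP2, a gelatinase, had 0.614, 0.752 and 0.640 FPKM (iEV 1 to 3) and 3.66, 6.90 and 6.49 FPKM (iGLI2 1 to 3), a log2 fold change of 1.96 (adjusted p = 0.00230, limma). VIM, encoding vimentin, had 23.2, 23.6 and 21.7 FPKM (iEV 1 to 3) and 36.0, 53.8 and 41.9 FPKM (iGLI2 1 to 3), a log2 fold change of 0.90 (adjusted p = 0.00997, limma). CD44, the hyaluronan receptor, had 44.1, 39.0 and 37.1 FPKM (iEV 1 to 3) and 75.6, 71.7 and 72.6 FPKM (iGLI2 1 to 3), a log2 fold change of 0.86 (adjusted p = 0.00138, limma). The groups of each did not overlap, and VIM passed in 5 of the 6 fits without 1 library.

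The 3 targets that were lower were PLAU, MMP7 and ITGB6. PLAU, which encodes urokinase and has a classic AP-1 enhancer, had 266, 373 and 350 FPKM (iEV 1 to 3) and 106, 116 and 118 FPKM (iGLI2 1 to 3), a log2 fold change of -1.51 (adjusted p = 0.00133, limma). Its receptor gene PLAUR was higher, with a log2 fold change of 0.47 (adjusted p = 0.00595, limma), and was named after its value was seen. MMP7, matrilysin, had 312, 333 and 299 FPKM (iEV 1 to 3) and 80.7, 178 and 162 FPKM (iGLI2 1 to 3), a log2 fold change of -1.24 (adjusted p = 0.0339, limma), and ITGB6 fell by 0.52 on the log2 scale (limma adjusted p = 0.0105). Of these, PLAU passed in all 6 fits without 1 library, ITGB6 in 3 and MMP7 in 2. CXCL8, the gene of interleukin 8, was named after its values were seen and had 53.6, 170 and 171 FPKM (iEV 1 to 3) and 83.8, 220 and 201 FPKM (iGLI2 1 to 3). Replicate 1 was far below the other libraries of its group in both, and the limma adjusted p was 0.653.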

How the data were processed

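Expression was measured by RNA-seq in 6 libraries of YAPC cells, 3 YAPC-iEV and 3 YAPC-iGLI2, named and numbered from the sample labels. The authors trimmed the reads (Trimmomatic), mapped them to hg19 (TopHat2), and the submitters' processing notes name Cuffdiff 2.1.1. The gene annotation and the handling of multiply mapped reads and of strand are not given in the sources used here. The deposited values are read as FPKM, from their form and totals, since the header names no unit. The number of reads behind a value is unknown, so no counting error or detection limit is given. Total FPKM per library was 981344 to 1082687 in iEV and 803149 to 889559 in iGLI2 cells. The short RNA gene MIR4461 held 42.6 to 45.4% of it in iEV and 35.7 to 37.7% in iGLI2 cells. Both ranges thus differed between the groups without overlap. A fit that left out small RNA genes, MIR4461 among them, and rescaled the rest is given below. Beyond that fit, their part in the results was not tested. All 6 columns of values were matched to samples, and 0 were left over.

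Of 27024 entries, 1252 outside the primary chromosomes were dropped, and for repeated names the entry with the highest mean was kept (330 dropped), which left 25442 genes. IER3 is also listed on alternative haplotypes, and its entry on chromosome 6 was used. Names that a spreadsheet turned into dates (27) were kept apart. The test, limma 3.58.1 under R 4.3.3, took log2(FPKM + 1) of 12493 genes whose mean reached 1 FPKM, with group as the only term, an intensity trend and Benjamini-Hochberg adjustment over all genes tested (threshold 0.05). Fold changes are on that scale, which understates changes of low genes. Tests designed for counts were not applied, since the values are no counts. Single shares and ratios were compared by exact permutation in scipy 1.17.1, which cannot give a two-sided p under 0.1 with 3 against 3. The limma script was first tested on simulated data with known changes. Locus starts, 0-based as deposited, were raised by 1. Strands and overlapping genes came from GENCODE release 44 lifted to GRCh37, and promoter windows from the RefSeq table (GRCh38.p14).

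The members and the 4 related lists were chosen with earlier results of these data known. Genes named from the lists are up to 3 higher and 3 lower in each with an adjusted p under 0.05 and at least 5 FPKM in the higher group, by largest change. IL8 was listed beside its other symbol CXCL8 and counted once. Alternatives were a pseudocount of 0.1, no filter, a minimum mean of 5 FPKM, upper quartile scaling, quantile normalization, leaving out small RNA genes with rescaling, a block for the replicate number or for the digit in each sample code, limma without the trend, and leaving out each library. Leaving out replicate 1 of both groups was added after the data were seen.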

Additional observations from a re-analysis of the deposited data

How the results depend on the processing

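When single libraries were left out, the number of genes called ran from 1223 to 3753 (2742 in the reported test), those higher from 608 to 1855 and those lower from 615 to 1898, with the highest values without iGLI2 replicate 1. Without replicate 1 of both groups they were 5467, 2661 and 2806. Members called higher ran from 1 to 3 and called lower from 0 to 2 over all these settings. Genes called in them were 1 to 12 among the bZIP factors, 7 to 26 among other immediate early genes (17 without iGLI2 replicate 1), 4 to 15 among upstream genes (11) and 5 to 16 among AP-1 targets (14). The differences in family share stayed between 2.19 and 6.37 percentage points for FOSL1, -5.21 and -1.83 for FOSL2, -1.37 and -0.353 for FOS, 10.5 and 12.0 for JUN, -7.98 and -6.00 for JUNB and -5.74 and -2.54 for JUND, and crossed 0 for FOSB (-0.0365 to 0.00463). The difference in the ratio of JUN to JUNB stayed between 0.736 and 0.858.

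A minimum mean of 5 FPKM left 1914 genes called, of which 824 were higher. It left 1 member called higher (ARC and FOS were no longer tested) and 2 bZIP factors called. Members called lower became 1 (EGR1) under upper quartile scaling, quantile normalization and the small RNA setting. That last setting also called 3 members higher (ARC, JUN and FOSL1), and moved the median log2 fold change of all genes from -0.015 to 0.055 and the share of calls that were higher from 46.0% to 59.4%. With a block for the digit in each sample code, 3 bZIP factors and 7 AP-1 targets were called. In that setting 2084 genes were called over the whole table, beside 2742 in the reported test, so the number fell there as well. The cause of these shifts was not tested. Log2 fold changes near 0 turned positive for JUND, at 0.011 with small RNA genes left out, 0.017 without iGLI2 replicate 1 and 0.057 without both replicates 1. Those of IER3 turned positive at 0.023 without iEV replicate 3 and 0.044 without iGLI2 replicate 1. When single libraries were left out, they ran from -0.11 to 0.017 for JUND and from -0.18 to 0.044 for IER3.

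Samples that share a replicate number were not shown to be pairs, as the correlations of their deviations from the group means were 0.204, 0.0919 and 0.0276 for numbers 1, 2 and 3, and not every library correlated best with its own number. The fit with the replicate block called 3928 of the 12493 genes tested, beside 2742 without the block. Among the members it called 4 higher (ARC, JUN, FOSL1 and FOS, with limma adjusted p of 0.0157 for FOSL1 and 0.0434 for FOS) and 1 lower (EGR1, 0.00342). Levels under 1 FPKM, such as those of FOSB and of ARC in iEV cells, are limited by depth, which is unknown here.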
